A study of Homo sapiens with 6 samples.

Results

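The cytosolic ribosomal proteins are the protein part of the ribosomes that translate mRNAs of nuclear genes. Their genes were picked by symbol, as the RPS and RPL genes with a number and at most a short ending, together with *RPSA*, *RPLP0*, *RPLP1*, *RPLP2* and *FAU*, without pseudogenes and S6 kinases. This gave 85 of the 22807 gene rows, of which 32 encode small subunit proteins, 46 encode large subunit proteins and 7 are paralogues of another gene among the 85. The mRNAs were measured by RNA sequencing in MDA-MB-453, an established HER2+ breast cancer cell line grown in RPMI with serum and antibiotics, in 3 libraries of cells with scrambled siRNA (SCR, genotype given as WT) and 3 libraries of cells with *DUSP6* knockdown by siRNA (*DUSP6* KD). DUSP6 is a phosphatase that inactivates the MAP kinase ERK. The study's text gives different siRNAs within each group, but not their assignment to the libraries, so that p-values measure a spread that may hold differences between siRNAs. No time after transfection is given in the sources used here.

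A ribosomal subunit takes up its proteins in fixed proportion, and the genes for them are spread over the genome and expressed at high levels in growing cells. Their mRNAs, like those of several translation factors, start with a C followed by a run of pyrimidines, the terminal oligopyrimidine (TOP) motif, through which the mTOR pathway and the protein LARP1 set their translation and stability. RPL5 and RPL11 form a particle with 5S rRNA. When ribosome assembly is disturbed, this particle binds MDM2, the ubiquitin ligase of p53.

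The deposited values were reads multiplied by 1 factor per library, on a linear scale, and are called normalized values here. Between 45546981 and 85729785 reads per library were recovered from them, and 1421812 to 3036633 of these lay in the 85 genes. *DUSP6* itself was at 209, 110 and 114 in SCR replicates 1 to 3 and at 39.4, 24.5 and 35.2 in *DUSP6* KD replicates 1 to 3, with no overlap. The markers of the line *ERBB2*, *EPCAM*, *KRT8*, *KRT18*, *CDH1* and *GATA3* were expressed in every library. *ERBB2*, *GATA3*, *KRT18* and *KRT8* were lower with *DUSP6* siRNA, with log2 fold changes of -0.99, -0.70, -0.51 and -0.42 by limma, and their part in the results was not tested. Of the markers of other cells, *COL1A1* was the only gene above the filter on low values, at 80.7 to 105 in SCR and 162 to 192 in *DUSP6* KD, while *COL1A2* stayed at or below 0.134 and *PTPRC* at or below 0.0809. SCR replicate 3 stood apart from SCR replicates 1 and 2. Mitochondrial transcripts took 17.6% and 17.5% of the reads in SCR replicates 1 and 2, 11.1% in SCR replicate 3 and 11.2% to 11.7% in *DUSP6* KD. The results below are therefore also given without SCR replicate 3 where they rest on it.

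The first bases of the mRNAs carry the motif that most of these genes share, so the start regions of the genes the results turn on are shown. Of the 85 genes, 65 had a start in the RefSeq promoter table (GRCh38.p14) within 50 bases of the start of the canonical GENCODE transcript. A C followed by at least 5 pyrimidines, read on the gene's strand within 10 bases of the start, was found in 52 of the 65 (80.0%), against 17.0% of 16850 genes of the table treated in the same way. The 30 bases below run from 20 bases before the start to 10 bases after it, 5′ to 3′ on the gene's strand, and capitals mark the run.
RPL11 (chr1:23691786-23691815, plus strand): tcggccggaagctccgCTTTCTCTTCCTgc
RPS24 (chr10:78033843-78033872, plus strand): ttggccggcgaatcgtggttCTCTTTTCCT
RPL26 (chr17:8383184-8383213, minus strand): accggaagcagcgtgtagttCTCTTCCCTT
RPLP1 (chr15:69452798-69452827, plus strand): gctgcgtataggcgcgagagCCCCTTTCCT
RPLP0 (chr12:120201102-120201131, minus strand): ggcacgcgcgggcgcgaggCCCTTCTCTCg
FAU (chr11:65122125-65122154, minus strand): tgacgcgccctcgCTTCTTCCTCTTTCTCg
RPS27L (chr15:63157468-63157497, minus strand): cccggaagttgatgccgagcgcagatcgct

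*RPL11*, *RPS24*, *RPL26* and *RPLP1* fell with *DUSP6* siRNA, *RPLP0* was not called, and *FAU* and *RPS27L* rose, as described below. No run was found in the window of *RPS27L*. The letters CTTTCC, which are themselves pyrimidines and can lie inside a run, were present on the gene's strand in the 30 bases of 18 of the 65 genes (27.7%) against 1.57% of the table. On the other strand they were present in 0 of the 65 and in 0.932% of the table. The run was present in 11 of the 12 genes called lower that had such a start and in 41 of the other 52 tested genes (91.7% and 78.8%). A start region with the run was thus common to genes that fell and genes that were not called.

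With *DUSP6* siRNA, 17 of the 83 ribosomal protein genes that passed the filter on low values were lower (20.5%) and 2 were higher (2.41%) at a limma adjusted p under 0.05. Among all 12862 genes tested, 24.7% were lower and 19.7% were higher by the same test. The share of lower ribosomal protein genes was thus near that of all genes. The share of higher ones was below that of all genes, but without SCR replicate 3 it was above, at 26 genes (31.3%) against 24.9% of all genes. By quantile normalization 14 ribosomal protein genes were higher (16.9%) and 12 lower (14.5%), against 23% and 22.4% of all genes. On reads divided by the library total 7 were higher (8.43%) and 9 lower (10.8%), against 37.2% and 14% of all genes. With each library scaled to the summed ribosomal protein genes 6 were higher and 6 lower (7.23% each), against 21.3% and 12.3% of all genes. Both shares were thus below those of all genes under these 3 scalings. In the reported fit the other 64 were not called, and 58 of these had log2 fold changes within 0.3 of 0. The log2 fold changes of the 83 genes had a median of -0.08, against -0.01 for all genes tested, and ran from -1.01 to 0.52. This median was positive under the same 3 scalings, at 0.13 by quantile normalization, 0.15 on reads divided by the library total, where the median of all genes moved by 0.21, and 0.06 on the scale of the summed ribosomal protein genes. The values of all 3 *DUSP6* KD libraries lay below all 3 SCR libraries in 29 of the 83 genes and above them in 3, and in the other 51 the groups overlapped. Among all genes tested, 31.1% lay below without overlap and 26.7% above. *RPL3L* and *RPL10L*, the genes under the filter, are taken up with the paralogues.

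**Figure D1:**
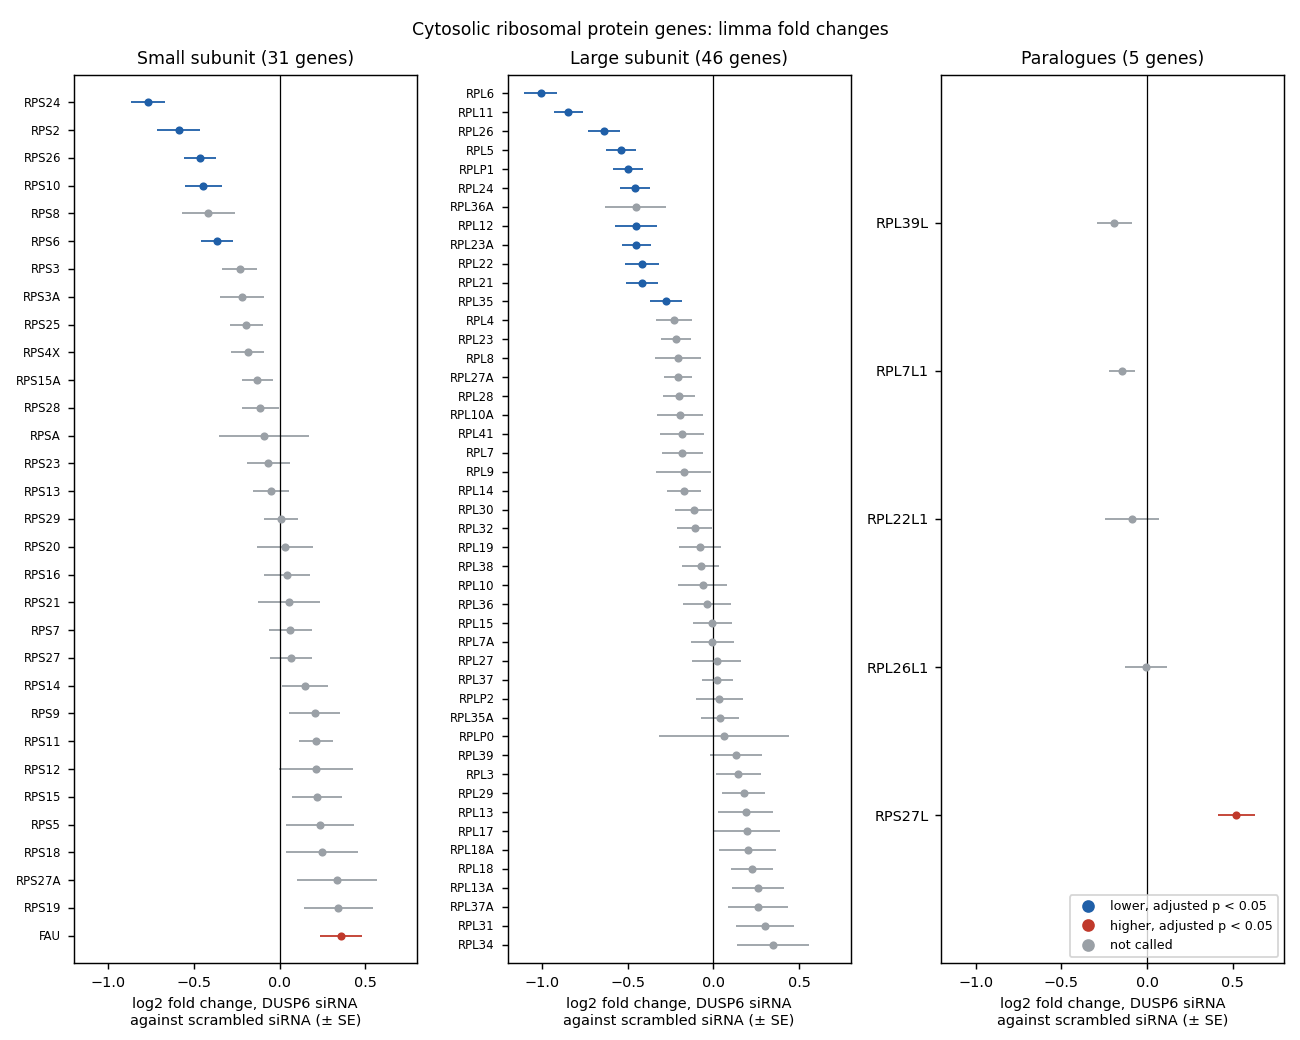
Each point is the log2 fold change of a ribosomal protein gene, DUSP6 siRNA against scrambled siRNA, on the log2(value + 1) scale with its limma standard error, for the small subunit, the large subunit and the paralogues. The genes called lower reach from -0.28 for RPL35 to -1.01 for RPL6, and the genes called higher are FAU at 0.36 and RPS27L at 0.52.

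The lower genes came from both subunits. They were 11 of 46 large subunit genes (23.9%) and 6 of 32 small subunit genes (18.8%), and they lay on 10 chromosomes. The proteins that bacteria, archaea and eukaryotes have in common were represented by 7 of 33 genes (21.2%). The other proteins were represented by 10 of 45 (22.2%). Among all genes tested 24.7% were lower, so these shares were near that of all genes. The median length of the canonical transcript was 921 bases in the lower genes and 781.5 bases in the other tested genes, and the median GC content was 47.0% and 47.8%.

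The largest fall was in *RPL6* (Entrez gene 6128, chromosome 12, 112405181 to 112418835), which encodes the large subunit protein eL6. Its normalized value was 534, 473 and 546 in SCR replicates 1 to 3 and 271, 235 and 265 in *DUSP6* KD replicates 1 to 3. Every *DUSP6* KD library was thus far below the lowest SCR library. In these bulk libraries, a lower level in every cell and a low level in some of the cells cannot be told apart. The mean went from 517 ± 38.9 (SD, n = 3) to 257 ± 19.4 (SD, n = 3), 49.6% of the SCR mean, with a log2 fold change of -1.01 (adjusted p = 9.95e-05 by limma, standard error 0.10). *RPL11* (Entrez gene 6135, chromosome 1, 23691779 to 23696835), which encodes uL5 of the 5S particle, was at 489, 493 and 504 in SCR and at 287, 258 and 281 in *DUSP6* KD. The SCR libraries were close to each other and the groups were far apart. Its log2 fold change was -0.85 (adjusted p = 0.000113 by limma, standard error 0.09). *RPL5* (Entrez gene 6125, chromosome 1, 92831986 to 92841924), its partner uL18 in the 5S particle, was at 520, 545 and 535 in SCR and at 372, 343 and 385 in *DUSP6* KD, a log2 fold change of -0.54 (adjusted p = 0.00128 by limma, standard error 0.09). The mRNAs of both proteins of the 5S particle thus fell, *RPL11* to 55.6% and *RPL5* to 68.7% of the SCR mean. *RPL26* (Entrez gene 6154, chromosome 17, 8377516 to 8383193), which encodes uL24 and is also known to bind the p53 mRNA, was at 252, 258 and 235 in SCR and at 159, 146 and 173 in *DUSP6* KD. Its log2 fold change was -0.64 (adjusted p = 0.000793 by limma, standard error 0.09).

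In the small subunit, *RPS24* (Entrez gene 6229, chromosome 10, 78033863 to 78056806) fell most. This gene for eS24 is mutated in some families with Diamond-Blackfan anemia, as are *RPL5*, *RPL11* and *RPL26*. Its value was 614, 579 and 569 in SCR and 351, 311 and 374 in *DUSP6* KD, with no overlap. The mean went from 587 ± 23.7 to 345 ± 31.9 (SD, n = 3 each), a log2 fold change of -0.77 (adjusted p = 0.000377 by limma, standard error 0.10). *RPS2* (Entrez gene 6187, chromosome 16, 1962058 to 1964826), which encodes uS5 near the mRNA entry, was at 1147, 920 and 1217 in SCR and at 769, 666 and 735 in *DUSP6* KD. SCR replicate 2 was the lowest SCR library and was still above every *DUSP6* KD library. The log2 fold change of *RPS2* was -0.59 (adjusted p = 0.00517 by limma, standard error 0.13). *RPL6*, *RPL11*, *RPS24*, *RPL26* and *RPS2* were called lower in each of 18 fits, the reported one and its alternatives.

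**Figure D2:**
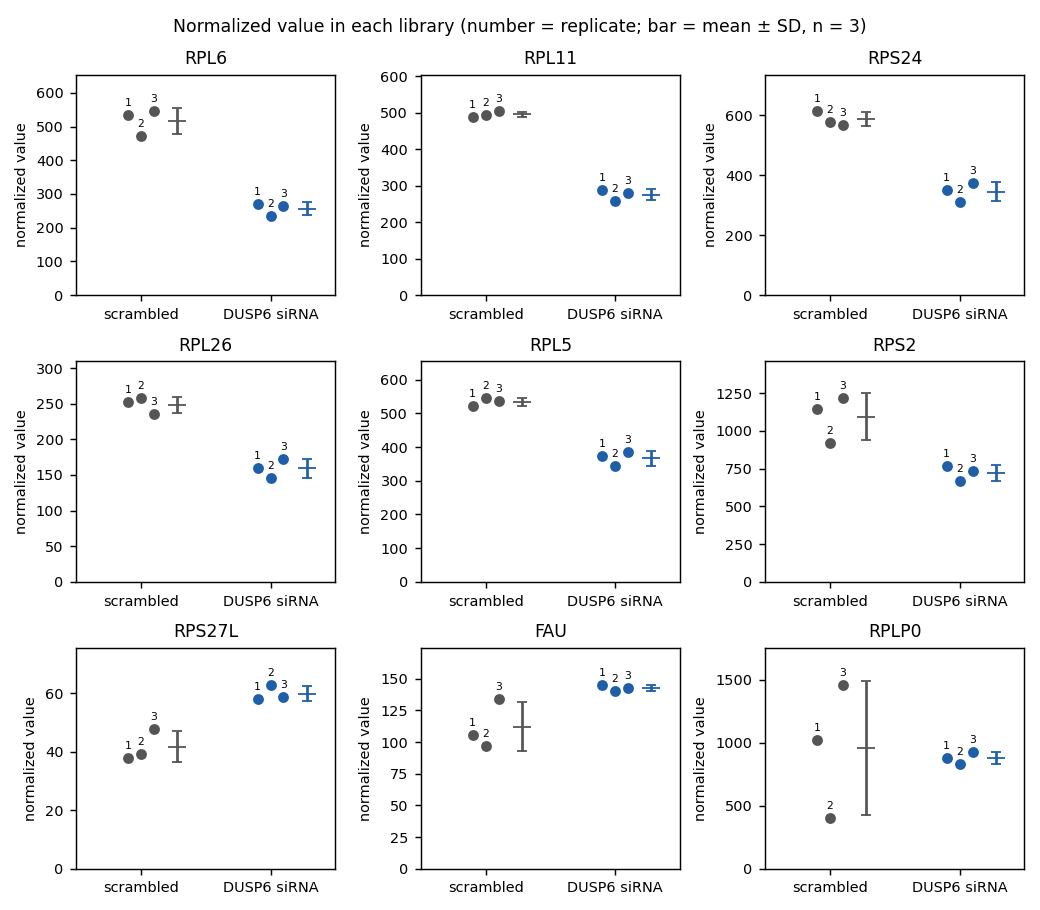
Normalized value (linear scale, from 0) of 9 ribosomal protein genes in each library, with the replicate number above each point and the mean ± SD of 3 libraries beside them. In RPL6, RPL11, RPS24, RPL26, RPL5 and RPS2 all DUSP6 siRNA libraries lie below all scrambled libraries, in RPS27L and FAU they lie above, and in RPLP0 they lie among scrambled values from 403 to 1460.

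Also lower were *RPLP1*, *RPS26*, *RPL24*, *RPL12*, *RPL23A*, *RPS10*, *RPL22*, *RPL21*, *RPS6* and *RPL35*, with log2 fold changes from -0.50 to -0.28. Apart from *RPLP1* and *RPL22* they are outside the rule for named genes. Among them *RPS6*, whose protein is the substrate of the S6 kinases, was at 535, 536 and 586 in SCR and at 438, 400 and 449 in *DUSP6* KD, and its log2 fold change was -0.36 (limma adjusted p = 0.011). *RPS10* shares 84.0% of its exon bases with an annotated readthrough transcript into its neighbor, so its value is uncertain. The weakest of the list was *RPL35*, which kept the call in 9 of 18 fits. *RPL24*, *RPL5* and *RPLP1* lost it when libraries were scaled to the summed ribosomal protein genes. *RPS26* and *RPS10* lost it there and on reads divided by the library total, and *RPL22*, *RPL21* and *RPL23A* lost it under both and under quantile normalization. *RPS6* and *RPL12* lost it under these 3 scalings and without *DUSP6* KD replicate 2. All 17 genes were also called lower without SCR replicate 3.

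The values of the lower genes can also be given against the other ribosomal protein genes of the same library, which does not depend on how libraries are scaled. *RPL6* took 1.82%, 1.68% and 1.49% of the reads of the 85 genes in SCR replicates 1 to 3 and 0.943%, 0.869% and 0.903% in *DUSP6* KD. The share of *RPL11* was 1.60% ± 0.20 in SCR and 0.970% ± 0.025 in *DUSP6* KD, and that of *RPS24* was 1.90% ± 0.30 and 1.22% ± 0.062 (SD, n = 3). The share of *RPS2*, the gene with the most reads among those that fell, went from 3.51% ± 0.36 to 2.55% ± 0.11. In *RPL6*, *RPL11*, *RPS24*, *RPL26*, *RPS2* and *RPL5* the shares did not overlap between the groups. These genes were picked because they were lower in the same libraries, so that the shares are a description and were not tested.

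Most ribosomal protein genes that were not called had a common profile over the 6 libraries, in which SCR replicate 3 was the highest. The 85 genes took 2.58%, 2.59% and 3.54% of the reads in SCR replicates 1 to 3 and 3.12%, 2.92% and 3.17% in *DUSP6* KD. SCR replicate 3 had the highest of the SCR values in 68 of 83 genes (81.9%), against 38.3% of all genes tested. Its median log2 difference from the mean of SCR replicates 1 and 2 was 0.38 over the 83 genes and 0.02 over all genes tested. Within the 83, this difference was 0.04 in the genes called lower and 0.42 in all the others. In 28 of the 83 genes SCR replicates 1 and 2 lay below and SCR replicate 3 above every *DUSP6* KD library. This order was not counted over all genes tested, so the 28 cannot be set against a share of all genes. The median coefficient of variation of the 83 genes was 16.0% in SCR and 4.70% in *DUSP6* KD, against 12.7% and 6.04% over all genes. Mitochondrial transcripts, which took fewer reads in SCR replicate 3 as given above, moved with this difference, and their part in it was not tested.

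Without SCR replicate 3, 26 ribosomal protein genes were higher (31.3%) and 18 were lower (21.7%) with *DUSP6* siRNA, against 24.9% and 27.8% of all genes in the same fit, and the median log2 fold change was 0.04. The 26 held 24 genes that were not called with all 6 libraries. *RPS27A*, which encodes a fusion of ubiquitin and eS31, was at 166, 203 and 359 in SCR replicates 1 to 3 and at 285, 284 and 300 in *DUSP6* KD replicates 1 to 3. The *DUSP6* KD libraries lay between SCR replicate 3 and the others. The log2 fold change of *RPS27A* was 0.33 with all libraries (adjusted p = 0.27 by limma, standard error 0.23) and 0.66 without SCR replicate 3 (limma adjusted p = 0.00113). *RPSA*, which encodes uS2 and is known also as the laminin receptor precursor, was at 151, 140 and 316 in SCR and at 177, 165 and 190 in *DUSP6* KD. Its log2 fold change of -0.09 turned to 0.28 without SCR replicate 3 (limma adjusted p = 0.0273). *RPL3*, which lies at the peptidyl transferase center, was at 859, 772 and 1090 in SCR and at 976, 987 and 1017 in *DUSP6* KD, a log2 fold change of 0.15 with and 0.29 without SCR replicate 3 (limma adjusted p = 0.0172 without it). The number of higher ribosomal protein genes thus rested on SCR replicate 3, and the lower genes did not. Both numbers also changed with the scaling of the libraries, as given above.

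**Figure D3:**
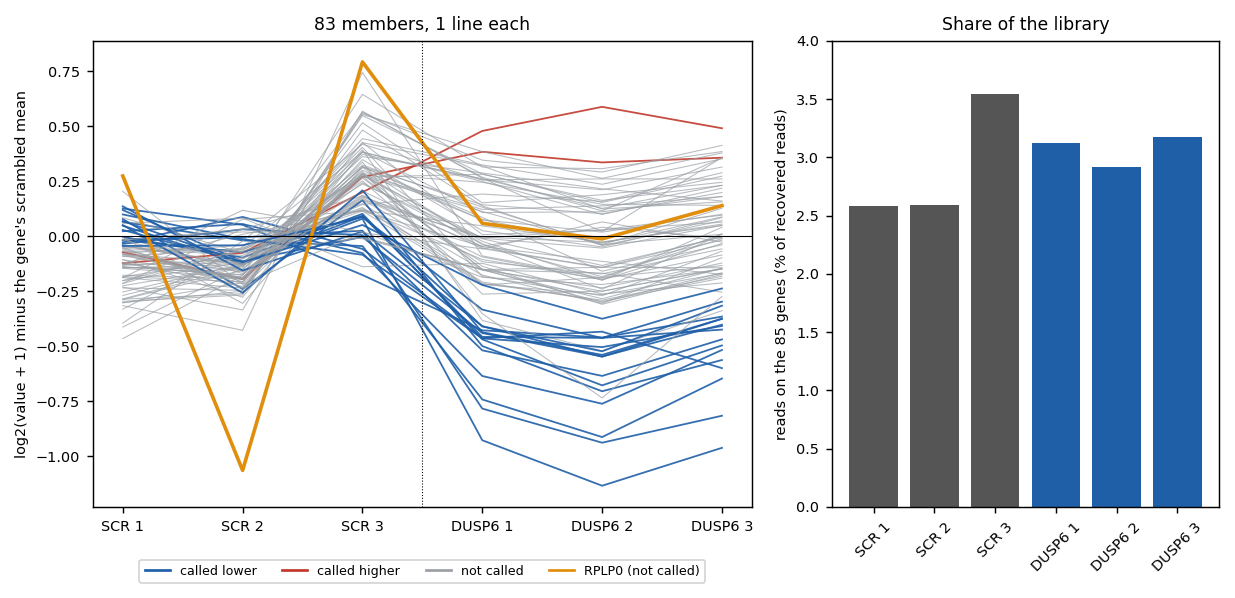
Left, log2(value + 1) of the 83 tested genes in each library minus the gene's mean over the scrambled (SCR) libraries, with 1 line per gene and the vertical dotted line between the groups. Right, reads on the 85 genes as a percentage of recovered reads. Most grey lines peak at SCR 3, the blue lines of the genes called lower stay near 0 in SCR and drop in all DUSP6 siRNA libraries, and the share is highest in SCR 3 at 3.54%.

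The stalk of the large subunit, which recruits translation factors to the ribosome, is made of RPLP0 and pairs of RPLP1 and RPLP2. *RPLP1* (Entrez gene 6176, chromosome 15, 69452818 to 69456205) was at 234, 253 and 229 in SCR and at 173, 176 and 157 in *DUSP6* KD, a log2 fold change of -0.50 (adjusted p = 0.00217 by limma, standard error 0.09). *RPLP2* was at 174, 184 and 251 in SCR and at 220, 195 and 202 in *DUSP6* KD, and the groups overlapped (log2 fold change 0.03, limma adjusted p = 0.86). The log2 ratio of *RPLP1* to *RPLP2* reads was 0.43, 0.46 and -0.13 in SCR and -0.35, -0.15 and -0.36 in *DUSP6* KD. These ratios did not overlap (two-sided exact permutation test, p = 0.1), although SCR replicate 3 and *DUSP6* KD replicate 2 were close. With 3 libraries against 3, 0.1 is the smallest p this test can give, so it cannot reach 0.05.

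*RPLP0* (Entrez gene 6175, chromosome 12, 120196699 to 120201111), which is often used as a reference gene, varied more between the SCR libraries than between the groups. Its value was 1019, 403 and 1460 in SCR replicates 1 to 3 and 878, 836 and 928 in *DUSP6* KD replicates 1 to 3. SCR replicate 2 was at 39.5% of SCR replicate 1 and 27.6% of SCR replicate 3. The log2 fold change was 0.06 (adjusted p = 0.91 by limma, standard error 0.38). Leaving out SCR replicate 2 turned it to -0.47 (limma adjusted p = 0.0449). *RPLP0* took 3.48%, 1.43% and 3.99% of the reads of the 85 genes in SCR and 3.05% to 3.17% in *DUSP6* KD.

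*RPS27L* and *FAU* were the genes that were higher. *RPS27L* (Entrez gene 51065, chromosome 15, 63148249 to 63157477) encodes a near copy of eS27 and is a known target of p53. Its value was 38.0, 39.2 and 47.7 in SCR and 58.1, 62.7 and 58.6 in *DUSP6* KD, and the groups did not overlap. The mean rose from 41.6 ± 5.29 to 59.8 ± 2.56 (SD, n = 3 each), a log2 fold change of 0.52 (adjusted p = 0.00471 by limma, standard error 0.11), and the call was made in all 18 fits. *FAU* (Entrez gene 2197, chromosome 11, 65120630 to 65122134), which encodes a fusion of a ubiquitin-like protein and eS30, was at 106, 96.8 and 134 in SCR and at 145, 140 and 142 in *DUSP6* KD. SCR replicate 3 was close to the *DUSP6* KD libraries. The log2 fold change of *FAU* was 0.36 (adjusted p = 0.0378 by limma, standard error 0.12), and without SCR replicate 3 it was 0.49. *FAU* was called in 12 of 18 fits and lost the call with no filter and when any library but SCR replicate 3 was left out. Exons of *SYVN1* cover 17.2% of the exon bases of *FAU*, so the value is uncertain. *SYVN1* was itself higher with *DUSP6* siRNA, at 81.8 to 90.5 in SCR and 116 to 131 in *DUSP6* KD (log2 fold change 0.50, limma adjusted p = 0.0022), and its part in the *FAU* value was not tested. *FAU* took 0.357% ± 0.011 of the reads of the 85 genes in SCR and 0.503% ± 0.017 in *DUSP6* KD, without overlap (SD, n = 3).

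Some ribosomal proteins have a second gene that is used in certain tissues or states. The paralogues were minor in these cells. The shares of reads below are not corrected for transcript length. The canonical transcript has 6110 bases in *RPS27L* and 352 in *RPS27*, and their SCR means per kilobase were 6.81 and 545. It has 4499 bases in *RPL7L1* and 1233 in *RPL7*, with SCR means per kilobase of 37.5 and 617. Among the pairs with a share given below, only *RPL22L1* had the shorter transcript of its pair. *RPS27L* made up 18.1%, 18.4% and 17.2% of the reads of the pair *RPS27L* and *RPS27* in SCR and 22.0%, 25.3% and 22.0% in *DUSP6* KD, without overlap. *RPS27* itself was at 172, 174 and 230 in SCR and at 206, 185 and 208 in *DUSP6* KD and was not called (log2 fold change 0.07, limma adjusted p = 0.69). *RPL26L1* made up 8.62%, 6.35% and 8.10% of its pair with *RPL26* in SCR and 11.0%, 12.8% and 10.4% in *DUSP6* KD, also without overlap. Its own value was 23.8, 17.5 and 20.7 in SCR and 19.7, 21.5 and 20.1 in *DUSP6* KD (log2 fold change -0.01, limma adjusted p = 0.97), so that this share moved with *RPL26*. For both pairs the two-sided exact permutation test gave p = 0.1, the smallest it can give with 3 libraries against 3. *RPS27L* and *RPL26* were already called in the same libraries, so this test adds no support.

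In the other pairs the shares overlapped between the groups. *RPL22L1* made up 5.50% ± 1.71 of its pair with *RPL22* in SCR and 6.62% ± 0.43 in *DUSP6* KD (SD, n = 3, two-sided exact permutation test, p = 0.4). *RPL22*, an RNA-binding protein known to repress *RPL22L1*, was at 327, 311 and 265 in SCR and at 223, 218 and 233 in *DUSP6* KD (log2 fold change -0.42, limma adjusted p = 0.00896), and *RPL22L1* was at 16.9, 13.5 and 21.3 in SCR and at 16.5, 14.2 and 17.1 in *DUSP6* KD. *RPL39L* made up 6.57% ± 1.36 of its pair with *RPL39* in SCR and 5.18% ± 0.34 in *DUSP6* KD (p = 0.3 by the same exact test). *RPL7L1*, which unlike the others acts mainly in the assembly of the large subunit, made up 18.3% ± 2.30 and 18.6% ± 0.43 of its pair with *RPL7* (p = 1 by the same exact test). *RPL3L*, the gene of heart and skeletal muscle, had values from 0 to 0.0856, and *RPL10L*, the intronless copy of *RPL10* used in the testis, had values from 0.417 to 1.17. Reads on *RPL10L* at these values cannot be told from reads of the near-identical *RPL10*. *RPL10* was at 1628 to 2274 in SCR and 1625 to 1921 in *DUSP6* KD.

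**Figure D4:**
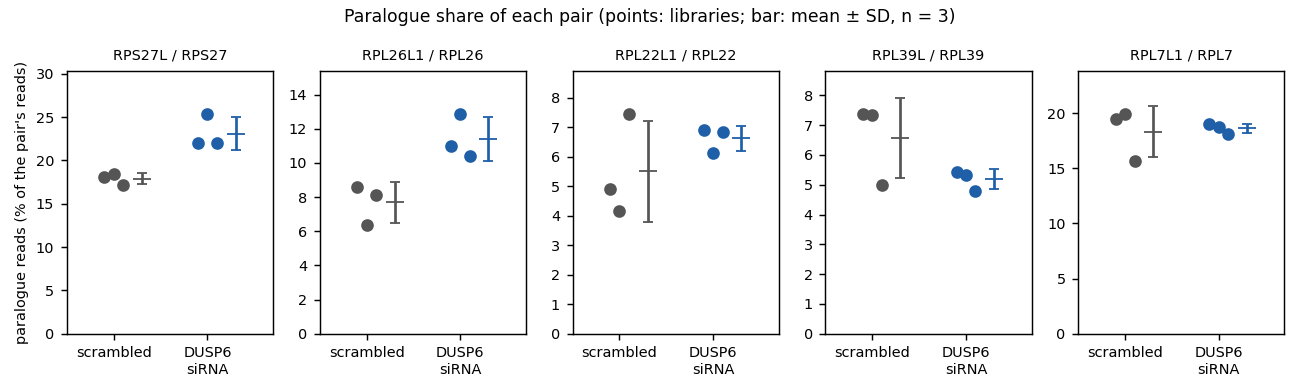
Reads on each paralogue as a percentage of the reads on the paralogue and its main gene, per library (points) with the mean ± SD of 3 libraries. The reads are not corrected for transcript length. The DUSP6 siRNA libraries lie above all scrambled libraries for RPS27L (22.0% to 25.3% against 17.2% to 18.4%) and RPL26L1 (10.4% to 12.8% against 6.35% to 8.62%), and the groups overlap for RPL22L1, RPL39L and RPL7L1.

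The levels of the genes differed far more than the groups did. Per kilobase of canonical transcript, the SCR mean was highest in *RPL41*, at 1400, and next in *RPL30*, at 1199, and *RPS2*, at 1158. *RPL8* followed at 1154 and *RPS24* at 1100. With *DUSP6* siRNA the levels per kilobase were 1222 for *RPL41*, 1101 for *RPL30*, 992 for *RPL8*, 766 for *RPS2* and 647 for *RPS24*. Neither *RPL41*, *RPL30* nor *RPL8* was called (limma adjusted p = 0.27, 0.41 and 0.23), and the order among *RPL30*, *RPS2* and *RPL8* in SCR was within the spread of the libraries. *RPL30* overlaps an annotated antisense gene in 51.4% of its exon bases, so its level is uncertain. Among tested genes *RPS27L* was lowest per kilobase in SCR, at 6.81 against 8.37 in *RPL36A*. In *DUSP6* KD *RPL36A* was lowest, at 5.72 against 9.79 in *RPS27L*. The place of *RPS27L* rests on the annotated transcript lengths, 6110 bases in *RPS27L* and 761 in *RPL36A*. The SCR mean of the normalized value was 41.6 in *RPS27L* and 6.37 in *RPL36A*. *RPL36A* shares 43.8% of its exon bases with a readthrough transcript. The normalized value of *RPL36A* was 5.56, 5.37 and 8.17 in SCR and 4.69, 3.36 and 5.01 in *DUSP6* KD (log2 fold change -0.45, limma adjusted p = 0.0641). In 8 of the 85 genes over 5% of the exon bases lie in another gene of the table, with 59.0% in *RPL38* and 50.7% in *RPL10*, and the values of these genes are uncertain.

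Other mRNAs that carry the TOP motif or are handled by the same pathway were compared with the ribosomal proteins. The counts of these lists are to be read against the 24.7% of all genes that were lower and the 19.7% that were higher. Of 24 translation factors and other TOP mRNAs, 8 were lower (33.3%) and 0 higher by limma, with a median log2 fold change of -0.14. At an unadjusted limma p under 0.05, 10 were lower and 1 was higher, and edgeR and DESeq2 each called 1 gene higher. *PABPC1*, the poly(A)-binding protein, was at 1888, 1594 and 1414 in SCR and at 948, 885 and 947 in *DUSP6* KD (log2 fold change -0.81, limma adjusted p = 0.000954). *TPT1*, the translationally controlled tumor protein, and *EEF1B2*, a nucleotide exchange factor of elongation, had log2 fold changes of -0.64 and -0.61 (limma adjusted p = 0.00241 and 0.00265). In all 3 the groups did not overlap. Of 14 host genes of snoRNAs, whose transcripts often start with the same motif, 2 were lower (*SNHG8* and *SNHG29*, log2 fold changes -0.41 and -0.39) and 1 was higher (*EPB41L4A-AS1*, log2 fold change 0.41). These calls were not stable. *SNHG8* and *SNHG29* each lost the call in 5 alternatives, among them reads divided by the library total and leaving out *DUSP6* KD replicate 1 or 2. *EPB41L4A-AS1* lost it with no filter and without SCR replicate 1 or *DUSP6* KD replicate 2 or 3. *EPB41L4A-AS1* is an antisense gene, and its reads can be told from those of its partner only by strand.

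Among 60 factors of ribosome assembly, 12 were lower (20%) and 2 higher (3.33%), with a median log2 fold change of -0.09. *LYAR*, a nucleolar factor of pre-rRNA processing, fell most, from 43.4, 25.9 and 31.6 in SCR to 11.2, 8.40 and 10.1 in *DUSP6* KD (log2 fold change -1.65, limma adjusted p = 0.000183). *TCOF1*, the Treacher Collins gene required for rDNA transcription, was next with a log2 fold change of -0.76, followed by *MRTO4*, which holds the place of the stalk during assembly, at -0.66. The higher genes were *RRP12* and *NMD3*, the export adapter of the large subunit, with log2 fold changes of 0.54 and 0.50, and *RRP12* lost its call without *DUSP6* KD replicate 3. Of 12 tested genes of RNA polymerase I and its factors, *POLR1E* was lower and *TAF1C* higher, with log2 fold changes of -0.65 and 0.53. *TAF1C* lost its call without SCR replicate 1 or 2 and without *DUSP6* KD replicate 1 or 2. Of 14 genes listed as chaperones and importers of ribosomal proteins, 5 were lower (35.7%) and 1 higher (7.14%). *BCCIP*, the chaperone of RPL23, was at 83.5, 88.8 and 93.9 in SCR and at 56.0, 53.2 and 55.2 in *DUSP6* KD (log2 fold change -0.68, limma adjusted p = 0.000362). The importers *KPNB1* and *IPO5* had log2 fold changes of -0.64 and -0.36. The higher gene was *AAR2*, at 0.45, which is not an established chaperone or importer of ribosomal proteins. *IPO5* lost its call in 8 alternatives, among them leaving out any library but SCR replicate 2, and *AAR2* without SCR replicate 2 or *DUSP6* KD replicate 2 or 3.

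Of 19 regulators of TOP mRNAs and ribosome supply, 3 were lower (15.8%) and 2 higher (10.5%). *EIF4EBP1*, which encodes the mTOR substrate 4E-BP1, was at 102, 77.2 and 104 in SCR and at 28.9, 22.0 and 26.1 in *DUSP6* KD, a log2 fold change of -1.84 (adjusted p = 2.86e-05 by limma). The log2 fold change was -0.62 in *EIF4EBP2*, its relative, and -0.36 in the S6 kinase gene *RPS6KB2*. It was 0.66 in *RPTOR*, the scaffold of mTOR complex 1, and 0.33 in *TIA1*, which binds TOP mRNAs under stress. *TIA1* lost its call without *DUSP6* KD replicate 1 or 3, and *RPS6KB2* on reads divided by the library total and on the scale of the summed ribosomal protein genes. Of 10 genes of the p53 response to disturbed ribosome assembly, 5 were higher (50%) and 1 was lower (10.0%). *SESN2*, *BBC3* and *CDKN1A* had log2 fold changes of 1.14, 0.87 and 0.83, and *MDM2* of -0.33, with normalized values of 128, 122 and 115 in SCR and 95.6, 92.7 and 102 in *DUSP6* KD. *MDM2* lost its call in 5 alternatives, among them leaving out *DUSP6* KD replicate 1 or 2. p53 itself was measured only as mRNA.

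The mitochondrial ribosome, which is encoded by other nuclear genes, served as a comparison. Of 77 tested mitochondrial ribosomal protein genes, 18 were lower (23.4%) and 5 higher (6.49%), with a median log2 fold change of -0.10. No test of a difference between this list and the cytosolic ribosomal proteins was made. Reads that fall in processed pseudogenes of ribosomal proteins can come from the genes themselves. The 31 rows of such pseudogenes held 5.08 to 5.95 reads for every 100 reads on the 85 genes in each library. Of the 24 that were tested, 4 were lower and 2 higher, with a median log2 fold change of 0.06.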

How the data were processed

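The authors mapped the reads with Rsubread to hg38 and counted them in RefSeq gene models at default settings. They deposited a normalized signal on a linear scale for each gene in each library. edgeR is named in the submitters' processing notes, and the normalization is not described further in the sources used here. All signal values were whole multiples of the worth of 1 read (100% within 0.01), which was 0.0121 to 0.0202. The kit keeps strand, and use of strand in counting is not stated. Replicates differed beyond sampling noise.

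limma 3.58.1 (R 4.3.3, eBayes with a trend, two-sided) was run on log2(value + 1) over the 12862 genes whose mean value reached 1, with Benjamini-Hochberg adjustment over all of them. This scale understates the changes of low genes. edgeR 4.0.16 and DESeq2 1.42.0 on the recovered reads, other scalings, filters and pseudocounts, a replicate block and leaving out each library were alternatives. All 3 tools were tested on simulated data. The ribosomal protein genes, other lists and markers were chosen with earlier results of these data known. Named were the 8 called genes with the largest change in each direction, the 3 highest and 3 lowest per kilobase, the paralogue pairs, the stalk genes, *RPL5*, *RPL11*, *FAU*, *RPS27A* and *RPSA*, and up to 3 called genes per direction of each other list. *RPS6*, *KRT8*, *SYVN1*, *RPLP0P2*, *RPL36AL* and the remaining lower genes were named after their values were seen. The values of 1 lower ribosomal protein gene and 1 marker are counted but not reported here. Transcripts were taken from GENCODE release 44, and positions and start regions from RefSeq on GRCh38.p14.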

Additional observations from a re-analysis of the deposited data

How the results depend on the processing

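The call and direction of DUSP6 mRNA held in all alternatives, with log2 fold changes from -2.22 to -1.76. Against 2 higher and 17 lower ribosomal protein genes in the reported fit, edgeR gave 2 and 16, DESeq2 gave 2 and 19, and no filter gave 1 and 16. Quantile normalization gave 14 higher and 12 lower with a median log2 fold change of 0.13. Reads divided by the library total gave 7 higher and 9 lower with a median of 0.15, and the median of all genes moved by 0.21. Scaling to the summed ribosomal protein genes, which was added after the data were seen, gave 6 higher and 6 lower, and the median of all genes moved by 0.12. The shares of all genes called under these scalings are given above. Leaving out each library in turn gave 1 to 26 higher, with the 26 only without SCR replicate 3, and 14 to 19 lower. The cause of these changes was not tested. The replicate numbers did not pair the libraries, since same-numbered libraries had correlations of 0.01, 0.09 and -0.08 between their deviations, and SCR replicates 1 to 3 correlated best with *DUSP6* KD replicates 3, 2 and 1. With a replicate block 2 ribosomal protein genes were higher and 19 lower.

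Of 1000 recomputed values of 59 named genes, 896 kept direction and side of the threshold, 57 lost the call, 7 gained it and 40 changed sign. Each gene that changed sign was a ribosomal protein gene that was not called. By quantile normalization and by reads over the library total, *RPL41* was at 0.040 and 0.047, *RPL30* at 0.13 and 0.11, *RPL8* at 0.019 and 0.023, *RPL10* at 0.25 and 0.17, *RPL7* at 0.077 and 0.049, *RPL7L1* at 0.023 and 0.083, and *RPSA* at 0.089 and 0.14. By reads over the library total, *RPL22L1* was at 0.13, *RPL39L* at 0.019 and *RPL26L1* at 0.21. Scaled to the summed genes, *RPL30* was at 0.019, *RPL22L1* at 0.039, *RPL26L1* at 0.12, *RPL10* at 0.073 and *RPSA* at 0.044. edgeR and DESeq2 gave 0.017 and 0.0064 for *RPL26L1* and -0.086 and -0.094 for *RPLP0*. Without a library, the range was -0.24 to 0.067 for *RPL22L1*, -0.0063 to 0.32 for *RPL39*, -0.0060 to 0.20 for *RPS27*, -0.12 to 0.095 for *RPL26L1*, -0.16 to 0.080 for *RPL10*, -0.47 to 0.46 for *RPLP0*, -0.068 to 0.20 for *RPLP2* and -0.30 to 0.28 for *RPSA*. Counting error was small at these depths, and the spread among the 3 libraries of a group set the precision.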

Other observations

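The low value of *RPLP0* in SCR replicate 2 was also seen in the row of its pseudogene. Reads on the pseudogene can come from *RPLP0* itself, and this was not tested. On the log2(value + 1) scale, *RPLP0* in SCR replicate 2 differed from the mean of SCR replicates 1 and 3 by -1.60, the 4th lowest difference of 12862 genes tested. *RPLP0P2*, a processed pseudogene, came next with a difference of -1.53. Its normalized value was 13.9, 5.10 and 19.8 in SCR replicates 1 to 3 and 12.0, 12.4 and 13.1 in *DUSP6* KD replicates 1 to 3. The next lowest ribosomal protein gene had a difference of -0.64, and the median over the 83 tested genes was -0.20.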
